A study of Mus musculus with 6 samples.

Results

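The Rab GTPases and the Tbc1d proteins were examined in RNA-seq profiles of splenic regulatory T (Treg) cells, a CD4 lineage that keeps immune responses in check. The genes were chosen by name: every row of the deposited tables whose symbol is Rab or Tbc1d followed by a number, with or without further letters and digits. This gave 94 of 14608 genes. By class, 53 encode Rab GTPases and 29 encode Tbc1d proteins, while 9 are partner proteins that carry a Rab name (Rab3gap1, Rab3gap2, Rab3ip, Rab3il1 and Rab11fip1 to Rab11fip5) and 3 are transcripts from the opposite strand (Rab10os, Rab26os and Tbc1d22bos). Rab6b and Tbc1d4 were singled out because of their low levels in the knockout libraries of these data. Their values are therefore given as a description, and no test of them is reported.

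The labels give 6 libraries from mouse spleen, 2 for each of 3 genotypes: wild type (WT), heterozygous Cdc42 knockout (Cdc42+/-) and homozygous Cdc42 knockout (Cdc42-/-). All 6 libraries came from cells sorted as positive for CD4 and the fluorescent protein YFP, and the comparisons ask how loss of 1 or both copies of Cdc42 changes gene expression in these cells. The labels name neither the driver of YFP, nor that of the deletion, nor age, sex or treatment of the mice.

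Rab proteins are small GTPases that mark the membranes of the cell. Bound to GTP, a Rab recruits effectors that bud, carry, tether or fuse vesicles, and each organelle carries its own set. Guanine nucleotide exchange factors (GEFs) load a Rab with GTP, and GTPase-activating proteins (GAPs) make it hydrolyse the GTP and so switch it off. Most Rab GAPs share a catalytic region called the TBC domain, from which the Tbc1d genes take their name. In T cells, Rab proteins are known for moving receptors, integrins and secretory granules to and from the cell surface.

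The libraries held between 8556576 and 17796100 reads in genes. RPKM is the number of reads divided by gene length and by the library's total. As log2(RPKM + 1), a gene's median SD between the libraries of 1 genotype was 0.115 for WT, 0.084 for Cdc42+/- and 0.216 for Cdc42-/-. Cdc42 RNA itself was 166 and 161 RPKM in the WT pair, 164 and 156 in the Cdc42+/- pair, and 122 and 173 in the Cdc42-/- pair, so the level of this transcript does not tell the genotypes apart. The 10 Treg and T cell markers were above 0 in every library and summed to 2185 to 2423 RPKM in WT and Cdc42+/-, and to 1699 and 1376 RPKM in Cdc42-/-, where 5 of the 10 fell against WT (4.57% of all genes tested were lower). Foxp3 was 103 to 132 RPKM in WT and Cdc42+/-, and 119 RPKM for replicate 1 and 58.5 RPKM for replicate 2 of Cdc42-/-, and the difference of Ctla4 from WT in Cdc42-/- was 0.49 (log2) and did not pass (adjusted p = 0.0524). Cdc42-/- replicate 2 stood apart from the other 5 libraries. All 11 myeloid markers were highest there, with a sum of 1526 RPKM against 50.9 to 102 RPKM elsewhere. The erythroid markers summed to 0.295 to 3.71 RPKM in WT and Cdc42+/-, and to 16.6 RPKM in replicate 1 and 146 RPKM in replicate 2 of Cdc42-/-, with 1 of 4 tested past the threshold against WT (Car1, 5.43, adjusted p = 0.0178). Ddx3y, which lies on the Y chromosome, was 37.7 and 42.4 RPKM in WT, at most 0.126 RPKM in Cdc42+/-, and in Cdc42-/- it was 0.0974 RPKM in replicate 1 and 27.5 RPKM in replicate 2. Xist, expressed from the inactive X chromosome, was at most 1.13 RPKM in WT and at least 93.3 RPKM in Cdc42+/-, with 87.4 RPKM for replicate 1 and 21.2 RPKM for replicate 2 of Cdc42-/-. Any difference between Cdc42+/- and WT therefore cannot be told apart from a difference in sex-linked expression. Cdc42-/- against WT is confounded in part, since replicate 1 is like the Cdc42+/- libraries in these genes and replicate 2 holds RNA of both, and Xist itself rose there (4.795, adjusted p = 0.00753). Of the 94 genes, 5 are X-linked (Rab9, Rab33a, Rab39b, Tbc1d25 and Tbc1d8b).

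Rab6b and Tbc1d4 had different patterns across the genotypes. Rab6b was lower already in Cdc42+/- and lower again in Cdc42-/-. Tbc1d4 was at the WT level in Cdc42+/- and low in Cdc42-/-. Their nearest relatives, Rab6a and Tbc1d1, had no difference past the threshold with all 6 libraries. The 250 bases before a start that RefSeq lists are printed here for Rab6b, Rab6a and Tbc1d4. The first 2 are paralogs with different patterns, and the third is the other gene with a low level in the knockout. The sequences come from RefSeq's GRCm38.p6 annotation, 5′ to 3′ on the strand of the gene. The positions are chr9:103111824-103112073 on the plus strand for Rab6b, chr7:100607336-100607585 on the plus strand for Rab6a and chr14:101609192-101609441 on the minus strand for Tbc1d4. Capitals mark matches, on either strand, to a short motif.
Rab6b: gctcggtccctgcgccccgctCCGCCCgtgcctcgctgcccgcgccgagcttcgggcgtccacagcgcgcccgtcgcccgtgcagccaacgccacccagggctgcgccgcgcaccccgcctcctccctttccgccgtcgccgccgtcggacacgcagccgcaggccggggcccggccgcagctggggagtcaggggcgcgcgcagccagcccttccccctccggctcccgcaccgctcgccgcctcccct
Rab6a: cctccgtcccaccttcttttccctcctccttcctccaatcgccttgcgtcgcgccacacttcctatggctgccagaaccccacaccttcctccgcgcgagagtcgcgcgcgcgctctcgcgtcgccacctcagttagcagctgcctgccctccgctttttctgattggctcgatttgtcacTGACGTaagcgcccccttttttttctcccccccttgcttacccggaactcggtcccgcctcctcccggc
Tbc1d4: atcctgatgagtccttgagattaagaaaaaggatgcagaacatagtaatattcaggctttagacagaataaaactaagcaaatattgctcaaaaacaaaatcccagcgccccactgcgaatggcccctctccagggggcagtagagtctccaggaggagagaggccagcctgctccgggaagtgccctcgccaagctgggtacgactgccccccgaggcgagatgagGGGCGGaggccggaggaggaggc
The motifs searched were FOXO (TGTTTAC), RUNX (TGTGGTT), AP-1 (TGANTCA), Sp/KLF (GGGCGG), CREB/ATF (TGACGT) and ETS (CCGGAAG). The windows of Rab6b and Tbc1d4 each held 1 match, to GGGCGG, which 32.7% of 32851 promoter windows of the same length hold. The window of Rab6a held 1 match, to TGACGT, which 6.47% of the windows hold. The other motifs are found in 3.17% (FOXO), 4.40% (RUNX), 6.75% (AP-1) and 6.91% (ETS) of windows and had no match in these 3. The window of Rab6b was 80.8% G or C, that of Rab6a 62.8% and that of Tbc1d4 54.8%, against a median of 52.4%. Other annotated transcripts of these genes start inside or upstream of the windows. The window of Rab6b lies wholly within the full span of the gene (chr9:103111667-103185276), and those of Rab6a and Tbc1d4 overlap their genes in part. The matches are letters only, with no measurement of binding.

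Rab6b (gene ID 270192, GRCm38.p6 chr9:103111667-103185276) encodes a Golgi Rab best known from brain, which acts in transport back from the Golgi toward the endoplasmic reticulum. Its RNA measured 11.4 and 11.4 RPKM in the WT pair, 1.72 and 1.42 in the Cdc42+/- pair, and 0.191 and 0.301 in the Cdc42-/- pair. The 3 genotypes did not overlap, and the order was WT, then Cdc42+/-, then Cdc42-/-. These levels rest on 857 and 463 reads in WT, 125 and 120 reads for Cdc42+/-, and 10 and 13 reads for Cdc42-/-. The mean was 11.4 ± 0.0356 RPKM (SD, n = 2) in WT, 1.57 ± 0.210 RPKM in Cdc42+/- and 0.246 ± 0.0775 RPKM in Cdc42-/-. The WT mean was 7.25-fold that of Cdc42+/- and 46.4-fold that of Cdc42-/-, and the Cdc42+/- mean was 6.40-fold that of Cdc42-/-. On the log2(RPKM + 1) scale, which compresses differences between low levels, the difference from WT was -2.27 in Cdc42+/- and -3.32 in Cdc42-/-. On the scale of log2 reads relative to the library's total, as used by voom, a method that weights log read counts by their precision, the same differences were -2.90 and -5.57. Because this is RNA from whole sorted populations, fewer cells that express a gene and less RNA per cell cannot be told apart. Among the 53 Rab GTPases ranked by RPKM, Rab6b was at rank 28 in both WT libraries, at ranks 41 and 39 in Cdc42+/- and at rank 47 in both Cdc42-/- libraries.

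Rab6a (gene ID 19346, chr7:100607575-100641268) encodes the widely expressed form of the same Golgi Rab. Its RNA measured 25.4 and 26.3 RPKM in the WT pair, 27.1 and 27.7 in the Cdc42+/- pair, and 27.9 and 35.1 in the Cdc42-/- pair. Cdc42-/- replicate 2 was the highest library, and the other 5 lay close together. The difference on the log2(RPKM + 1) scale was 0.08 in Cdc42+/- against WT, 0.27 in Cdc42-/- against WT (limma, adjusted p = 0.243) and 0.19 between the knockouts (adjusted p = 0.407). Without Cdc42-/- replicate 1, which leaves the library with the high myeloid markers as the only one of its genotype, Rab6a passed against WT (0.43, adjusted p = 0.0185) and against Cdc42+/- (0.35, adjusted p = 0.0385). Without Cdc42-/- replicate 2 the difference from WT was 0.11 (adjusted p = 0.510). The share of Rab6b in the summed RPKM of Rab6a and Rab6b was 30.9% and 30.3% for WT, 5.97% and 4.89% for Cdc42+/-, and 0.679% and 0.850% for Cdc42-/-. In the transcripts of Rab6b, 0 of 5029 stretches of 50 bases were also found in Rab6a, so reads of the 2 genes share no such stretch. Exons of Rab6a overlap Mrpl48 on the opposite strand, and whether counting used strand is not given in the sources used here, so part of its reads may belong to that gene.

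Tbc1d4 (gene ID 210789, chr14:101442360-101609281), also called AS160, is a Rab GAP. Phosphorylation by the kinase Akt restrains it and so lets Rab10 and Rab8a bring vesicles with the glucose transporter GLUT4 to the surface of fat and muscle cells. Its RNA measured 52.5 and 48.4 RPKM in the WT pair, 49.9 and 48.3 in the Cdc42+/- pair, and 6.97 and 6.17 in the Cdc42-/- pair. Both Cdc42-/- libraries lay far below the other 4, and the WT and Cdc42+/- libraries overlapped. The reads behind these levels numbered 5551 and 2749 for WT, 5085 and 5714 for Cdc42+/-, and 512 and 374 for Cdc42-/-. The mean was 50.4 ± 2.95 RPKM (SD, n = 2) in WT, 49.1 ± 1.11 RPKM in Cdc42+/- and 6.57 ± 0.570 RPKM in Cdc42-/-. The WT mean was 1.027-fold that of Cdc42+/- and 7.68-fold that of Cdc42-/-, and the Cdc42+/- mean was 7.48-fold that of Cdc42-/-. Among the 29 Tbc1d genes ranked by RPKM, Tbc1d4 was at rank 2 in each WT and Cdc42+/- library, and at ranks 17 and 16 in Cdc42-/-. Tbc1d4 was at 6.97 RPKM in the Cdc42-/- library with low myeloid markers and at 6.17 RPKM in the one with high markers, and Rab6b was likewise low in both. The Treg and T cell markers also summed lower in both (1699 and 1376 RPKM, against 2185 to 2423 RPKM in WT and Cdc42+/-). The part of the cell mix in the Tbc1d4 and Rab6b values was not tested.

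Tbc1d1 (gene ID 57915, chr5:64156305-64351486) is the paralog of Tbc1d4 best known from muscle. It stood at 17.5 and 17.9 RPKM in the WT pair, 19.1 and 16.8 in the Cdc42+/- pair, and 24.9 and 16.3 in the Cdc42-/- pair. Cdc42-/- held both the highest and the lowest library, and the genotypes overlapped. The log2 difference of Cdc42-/- from WT was 0.18 (adjusted p = 0.592) and turned with the library left out. It was 0.47 without replicate 2 (adjusted p = 0.0475) and -0.11 without replicate 1 (adjusted p = 0.548). The share of Tbc1d4 in the summed RPKM of Tbc1d4 and Tbc1d1 was 75.0% and 73.0% for WT, 72.3% and 74.2% for Cdc42+/-, and 21.8% and 27.4% for Cdc42-/-. The more abundant of these paralogs was thus Tbc1d4 in WT and Cdc42+/-, and Tbc1d1 in Cdc42-/-. Of 7851 stretches of 50 bases in Tbc1d4 transcripts, 0 were found in Tbc1d1.

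**Figure D1:**
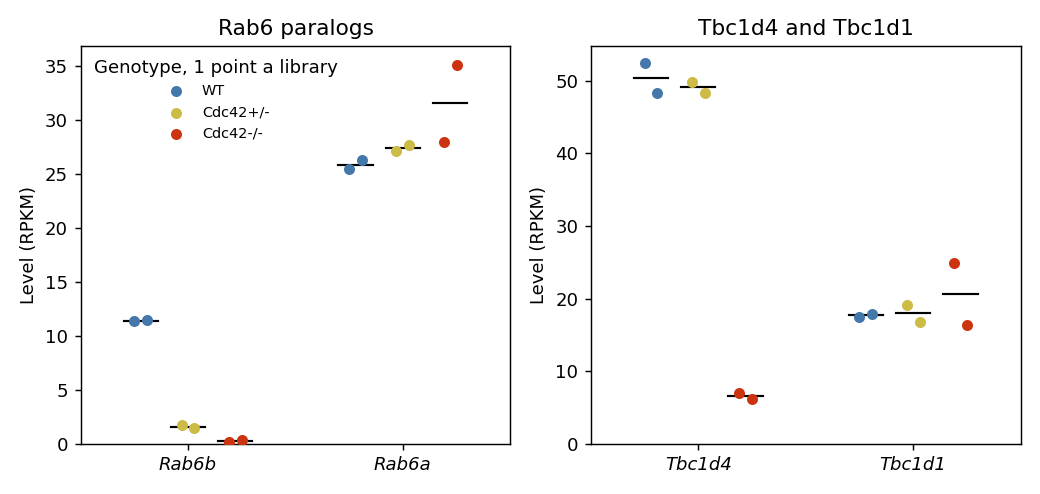
Levels of Rab6b and Rab6a and of Tbc1d4 and Tbc1d1 in RPKM, 1 point per library, by genotype. Rab6b steps down from 11.4 RPKM in WT through 1.57 RPKM in Cdc42+/- to 0.246 RPKM in Cdc42-/- (means), Tbc1d4 is low in Cdc42-/- only, and the paralogs Rab6a and Tbc1d1 stay within 16.3 to 35.1 RPKM.

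The wild-type levels place these genes among their families. The highest Rab GTPase in WT was Rab5c, an early endosome Rab, at 84.3 ± 11.2 RPKM (SD, n = 2). It was followed by Rab1b, which acts between endoplasmic reticulum and Golgi, at 66.0 ± 3.90 RPKM, the late endosome Rab7 at 65.9 ± 5.18 RPKM, and Rab10 at 65.2 ± 2.46 RPKM. Rab8a came next at 62.7 ± 3.11 RPKM, ahead of Rab37, a Rab of secretory granules, at 57.4 ± 0.666 RPKM, Rab8b at 55.4 ± 1.95 RPKM and the recycling Rab4b at 48.2 ± 0.623 RPKM. Rab1b, Rab7, Rab10 and Rab8a differ from each other by less than the SD of the widest of them. Rab10 and Rab8a, the Rabs that Tbc1d4 acts on, were thus both among the 5 most abundant. Rab6b was of middle rank.

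The Tbc1d family was dominated by 1 gene. Tbc1d10c, known as Carabin and as a lymphocyte inhibitor of calcineurin and Ras signalling, was at 229.8 ± 4.93 RPKM in WT. Tbc1d4 came second at 50.4 RPKM, followed by Tbc1d10a at 29.9 ± 2.35 RPKM, Tbc1d14, a regulator of autophagy, at 29.3 ± 7.73 RPKM and Tbc1d20, a GAP of Rab1, at 26.6 ± 6.20 RPKM. The last 3 do not differ beyond their spread. In Cdc42-/-, Tbc1d10c was at 213 and 143 RPKM, against 233 and 226 RPKM in WT, a difference of -0.39 on the log2 scale that did not pass (adjusted p = 0.228). Summed over the 53 Rab GTPases, the level was 1108 and 1088 RPKM in the WT pair, 1134 and 1137 in the Cdc42+/- pair, and 1148 and 1260 in the Cdc42-/- pair. The 29 Tbc1d genes summed to 607 and 561 RPKM in the WT pair, 585 and 601 in the Cdc42+/- pair, and 546 and 458 in the Cdc42-/- pair. The Rab sum was highest, and the Tbc1d sum lowest, in Cdc42-/- replicate 2.

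**Figure D2:**
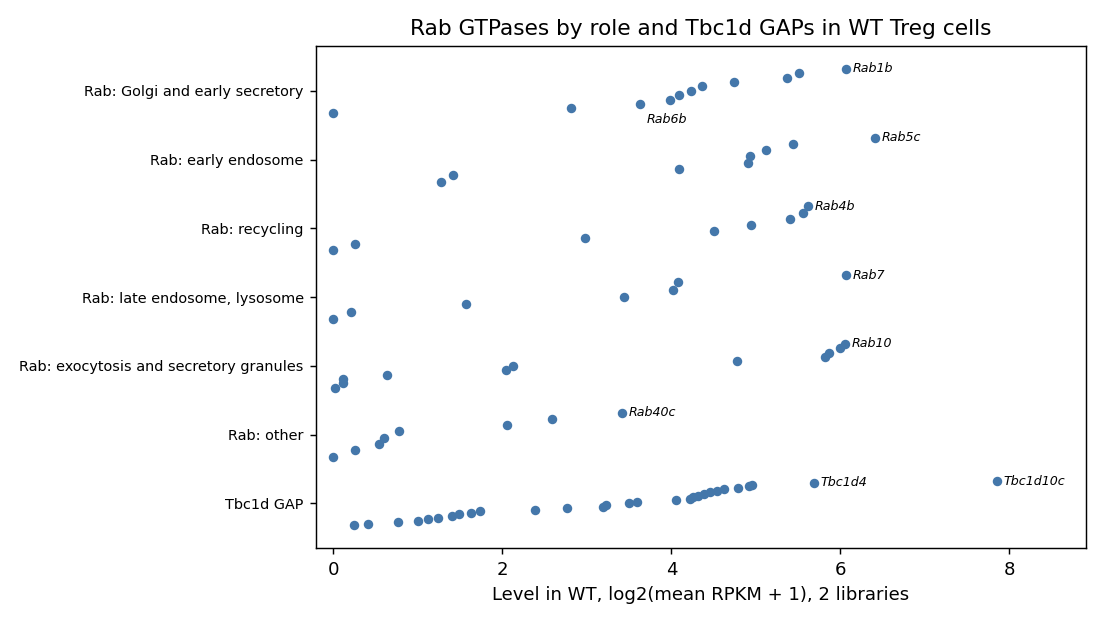
Mean WT level of each Rab GTPase, by role, and of each Tbc1d gene, as log2(RPKM + 1), 1 point per gene. Rab5c leads the Rab GTPases at 84.3 RPKM and Tbc1d10c the Tbc1d genes at 229.8 RPKM, with Tbc1d4 second at 50.4 RPKM.

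A total of 84 of the 94 genes passed the filter of a mean of at least 0.5 RPKM over the 6 libraries and entered the test. They comprise 44 Rab GTPases, 29 Tbc1d genes, 8 partner proteins and 3 opposite-strand transcripts. The other 10 (Rab15, Rab25, Rab27b, Rab34, Rab36, Rab39, Rab3c, Rab42, Rab7b and Rab3il1) were at or below 1.62 RPKM in every library. Counts below are over the 82 tested genes other than Rab6b and Tbc1d4. They come from limma on log2(RPKM + 1) with all 6 libraries in 1 fit, and a gene passed at a Benjamini-Hochberg adjusted p below 0.05 over 12233 genes. The labels do not say how many mice stand behind a library, so these p-values measure the spread between these libraries.

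In Cdc42+/- against WT, 0 of the 82 genes passed, as did 0% of all genes tested. This fit did not call very large differences either, such as Xist (5.93, adjusted p = 0.207) or Ddx3y (-5.27, adjusted p = 0.636), so the 0 does not show that levels were alike. Over all genes the count was 60 with only these genotypes, 76 without Cdc42-/- replicate 1 and 66 without Cdc42-/- replicate 2. At an unadjusted p below 0.05 there were 3 of the 82 genes and 529 of all genes (4.32%). With voom on the reads recovered from the tables, 0 of the 82 genes and 1 of all genes passed after adjustment. The smallest adjusted p was 0.723, for Rab11fip4, an effector of Rab11. Rab11fip4 was at 9.69 and 11.6 RPKM in the WT pair, 16.3 and 14.8 in the Cdc42+/- pair, and 11.01 and 10.8 in the Cdc42-/- pair, so both Cdc42+/- libraries were above the other 4. The median difference was 0.08 (log2), against 0.03 over all genes, and 77 of the 82 genes were within 0.5 of no change. In the authors' deposited table, 3 of the 92 genes other than Rab6b and Tbc1d4 had an adjusted p below 0.05 for this comparison (Rab11fip4, Rab27a and Rab44, all higher), against 2.28% of all genes there.

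In Cdc42-/- against WT, 7 of the 82 genes passed, 5 higher and 2 lower, which is 8.54% against 11.4% of all genes tested (6.86% higher and 4.57% lower). By class these were 3 of 43 Rab GTPases, 3 of 28 Tbc1d genes and 1 of 8 partner proteins. The median difference over the 82 genes was 0.08, against 0.01 over all genes, and 58 were within 0.5 of no change. The lowest values were -0.92 for Rab11fip2, -0.92 for Rab37, -0.90 for Rab3a and -0.80 for Tbc1d19, against -3.32 for Rab6b and -2.77 for Tbc1d4. In Cdc42-/- against Cdc42+/-, 3 of the 82 genes passed, 1 higher and 2 lower, which is 3.66% against 8.22% of all genes tested (4.68% higher and 3.54% lower). These 2 comparisons share the Cdc42-/- libraries. In the authors' deposited table, 10 of the 92 genes passed in Cdc42-/- against WT, 8 higher and 2 lower, against 8.66% of all genes there, and 4 of these 10 are among the 7 named here.

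**Figure D3:**
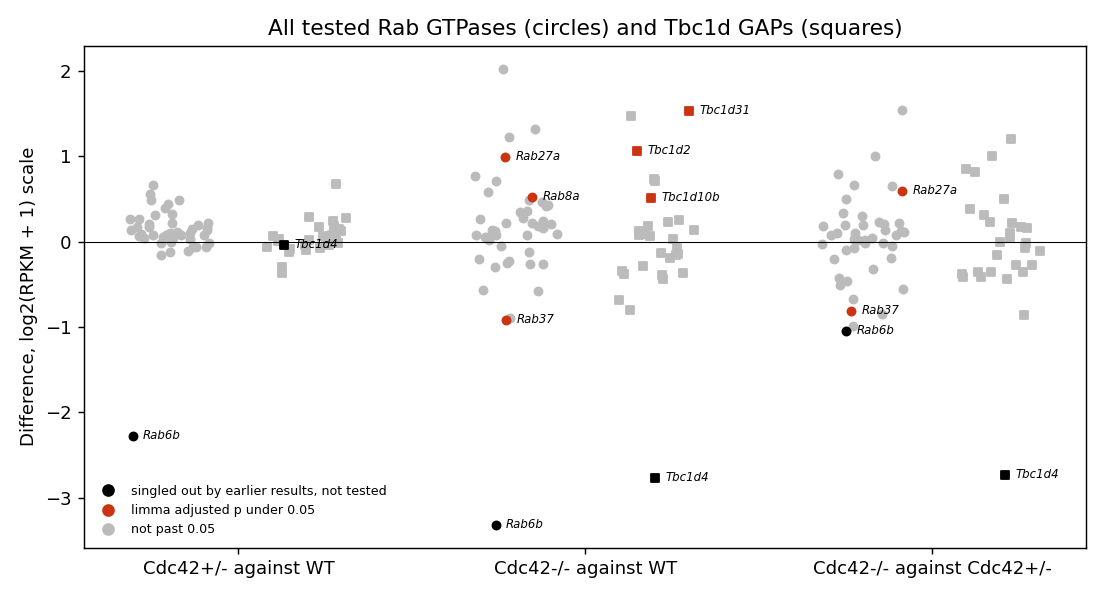
Difference between genotypes on the log2(RPKM + 1) scale, 1 point per gene, by class. Against WT, Rab6b was at -2.27 in Cdc42+/- and -3.32 in Cdc42-/-, and Tbc1d4 at -0.04 and -2.77. In Cdc42-/- both lie below the other tested Rab GTPases and Tbc1d genes, whose lowest value is -0.92. Both genotypes are set against the same WT libraries.

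Of 9 Rab GTPases tested that are listed under exocytosis and secretory granules, 2 rose and 1 fell in Cdc42-/- against WT, where 6.86% of all genes tested were higher and 4.57% lower. Rab27a (gene ID 11891, chr9:73044810-73097623) docks secretory granules and multivesicular bodies at the plasma membrane and is required for granule release by cytotoxic T cells. Its RNA measured 27.8 and 25.0 RPKM in the WT pair, 37.1 and 33.0 in the Cdc42+/- pair, and 56.2 and 50.7 in the Cdc42-/- pair. The 3 genotypes did not overlap, with Cdc42+/- between the others. Rab27a rose by 0.99 on the log2 scale in Cdc42-/- against WT (SE 0.12, adjusted p = 0.00612) and by 0.60 against Cdc42+/- (SE 0.12, adjusted p = 0.0384). The difference of Cdc42+/- from WT was 0.40 (SE 0.12, adjusted p = 0.854). Its paralog Rab27b was at most 0.143 RPKM in any library. Of 13 alternatives, the Rab27a call against WT was lost in 2, without WT replicate 1 (adjusted p = 0.0528) and without WT replicate 2 (adjusted p = 0.0735). The call against Cdc42+/- was lost in 5, with only the 2 genotypes compared (adjusted p = 0.0928) and without each WT or Cdc42+/- library (adjusted p = 0.0917 to 0.301). Markers of CD8 T and NK cells, which also carry Rab27a, summed to 25.1 to 30.7 RPKM in WT and Cdc42+/- and to 57.4 and 51.9 RPKM in Cdc42-/-. Of the 5 in the tables, 1 rose (Nkg7, by 1.14, adjusted p = 0.0101), and the other 4 did not pass. Cd8a measured 1.13 and 4.23 RPKM in Cdc42-/- against at most 0.970 RPKM elsewhere, and Eomes 2.62 and 2.08 RPKM against at most 1.55 RPKM. Cd8b1 stood at 6.31 to 7.73 RPKM in all 6 libraries, and Klrb1c was at 0 in Cdc42-/- replicate 1 and 0.158 RPKM in replicate 2. Their part in the Rab27a values was not tested. Exons of Rab27a overlap the predicted gene Gm27186 on the same strand.

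Rab8a (gene ID 17274, chr8:72161200-72181366) carries vesicles from the Golgi and recycling endosomes to the plasma membrane. Its RNA measured 64.9 and 60.5 RPKM in the WT pair, 69.8 and 73.9 in the Cdc42+/- pair, and 92.6 and 88.6 in the Cdc42-/- pair, again without overlap. Rab8a rose by 0.53 in Cdc42-/- against WT (SE 0.10, adjusted p = 0.0247), and its difference from Cdc42+/- was 0.33 (adjusted p = 0.0975). The call against WT was lost in 5 of 13 alternatives: with only the 2 genotypes compared (0.0964) and without each WT or Cdc42+/- library (up to 0.181). Rab37 (gene ID 58222, chr11:115091331-115162773) was at 57.0 and 57.9 RPKM in the WT pair, 52.5 and 53.7 in the Cdc42+/- pair, and 35.3 and 25.2 in the Cdc42-/- pair. Both Cdc42-/- libraries were below the other 4. Rab37 fell by 0.92 against WT (SE 0.16, adjusted p = 0.0197) and by 0.81 against Cdc42+/- (SE 0.16, adjusted p = 0.0372). Without Cdc42-/- replicate 2 the fall of Rab37 against WT was smaller, at -0.69, and passed (adjusted p = 0.00339). Both Rab37 calls were lost in 5 of 13 alternatives, with only the 2 genotypes compared and without each WT or Cdc42+/- library (adjusted p up to 0.144 against WT and 0.256 against Cdc42+/-).

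The remaining Rab groups had 0 genes past the threshold in each comparison, where 11.4% and 8.22% of all genes passed in Cdc42-/- against WT and against Cdc42+/-. Among them, Rab33b passed against WT with a filter at 2 RPKM, and against Cdc42+/- Rab1a passed with voom and with the replicate block and Rab5b with upper-quartile scaling. Others passed with a Cdc42-/- library left out. In Cdc42-/- against WT, the median difference was 0.21 for 10 Golgi and early secretory Rabs, 0.08 for 8 early endosome Rabs, 0.24 for 6 recycling Rabs and 0.21 for 6 late endosome and lysosome Rabs. The exocytosis group had a median of 0.42, and the 4 other Rabs tested had one of -0.09. Within that group, Rab10, named above as a Rab that Tbc1d4 acts on, was at 67.0 and 63.5 RPKM in the WT pair, 61.1 and 58.3 in the Cdc42+/- pair, and 54.4 and 56.5 in the Cdc42-/- pair. These libraries do not overlap between genotypes, yet the difference between Cdc42-/- and WT, -0.23, did not pass (adjusted p = 0.179). Rab3a, also of the exocytosis group and known from regulated exocytosis, was at 2.73 and 3.998 RPKM in the WT pair, 3.15 and 4.05 in the Cdc42+/- pair, and 1.11 and 1.54 in the Cdc42-/- pair, with both Cdc42-/- libraries lowest and no call against WT (adjusted p = 0.0705).

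Of the partner proteins, Rab11fip2 (gene ID 74998, chr19:59893502-59943656) passed. It is an adaptor that links Rab11 on recycling endosomes to the motor myosin Vb. Its RNA measured 5.50 and 4.65 RPKM in the WT pair, 5.47 and 4.96 in the Cdc42+/- pair, and 2.60 and 1.84 in the Cdc42-/- pair, so both Cdc42-/- libraries were lowest. Rab11fip2 fell by 0.92 against WT (SE 0.21, adjusted p = 0.0395) and by 0.96 against Cdc42+/- (SE 0.21, adjusted p = 0.0436). Without Cdc42-/- replicate 2 the differences were -0.75 against WT and -0.79 against Cdc42+/-, and neither call held. Both calls were also lost with no filter (adjusted p = 0.0622 and 0.0670) and with only the 2 genotypes compared (0.131 and 0.104). With the replicate block the call against Cdc42+/- was lost (0.0512). Rab11a, the Rab it binds, was at 18.4 and 25.0 RPKM in the WT pair and at 22.2 and 30.7 in the Cdc42-/- pair, and these ranges overlap.

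Against WT, 3 of the 28 Tbc1d genes rose in Cdc42-/- and 0 fell, which is 10.7% against 11.4% of all genes, about the share of genes in general. Tbc1d10b (gene ID 68449, chr7:127197459-127208468) belongs with Tbc1d10a and Tbc1d10c to the EPI64 family of GAPs. Its RNA measured 20.5 and 21.4 RPKM in the WT pair, 24.8 and 26.8 in the Cdc42+/- pair, and 29.7 and 31.0 in the Cdc42-/- pair, in steps that do not overlap. Tbc1d10b rose by 0.51 (SE 0.11, adjusted p = 0.0343), a call lost in 7 of 13 alternatives, among them upper-quartile scaling (0.0507) and the replicate block (0.0539). Tbc1d2 (gene ID 381605, chr4:46604390-46650340), or Armus, is a GAP of Rab7. It was at 1.14 and 1.601 RPKM in the WT pair, 1.57 and 1.36 in the Cdc42+/- pair, and 4.41 and 3.46 in the Cdc42-/- pair, with both Cdc42-/- libraries highest. Tbc1d2 rose by 1.06 against WT (SE 0.23, adjusted p = 0.0387), while its difference of 1.00 from Cdc42+/- did not pass (adjusted p = 0.0543). The call against WT was lost in 7 of 13 alternatives, among them a filter at 2 RPKM (0.0677) and the replicate block (0.0648). Tbc1d31 (gene ID 210544, chr15:57911685-57970068), a protein of centriolar satellites, was at 1.72 and 0.639 RPKM in the WT pair, 2.14 and 2.63 in the Cdc42+/- pair, and 3.999 and 6.43 in the Cdc42-/- pair. The genotypes do not overlap, and the spread within WT and within Cdc42-/- was wide. Tbc1d31 rose by 1.53 (SE 0.33, adjusted p = 0.0374), and without Cdc42-/- replicate 2 the value was 1.24 (adjusted p = 0.0501). This call was lost in 8 of 13 alternatives, among them no filter (0.0506) and the replicate block (0.0601).

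The calls depended on which libraries were in the fit, and a fit with fewer libraries has fewer residual degrees of freedom. Leaving out a Cdc42+/- library did not change the differences of Cdc42-/- from WT, such as 0.99 for Rab27a. Without WT replicate 1, and likewise without WT replicate 2, 0 of the 82 genes passed in Cdc42-/- against WT. The adjusted p of the 7 genes then lay between 0.0528 for Rab27a and 0.201 for Rab11fip2. Without either Cdc42+/- library, 1 passed, Rab27a, and the other 6 had an adjusted p between 0.0695 for Rab37 and 0.124 for Rab11fip2. The counts over all genes fell too, from 1398 to 259 without WT replicate 1, to 262 without WT replicate 2, and to 547 and 550 without Cdc42+/- replicates 1 and 2. Without Cdc42-/- replicate 1, 26 of the 82 genes (31.7%) and 4433 of all genes (36.2%) passed, and without Cdc42-/- replicate 2, 9 and 2263 (18.5%). Leaving out the library with the high myeloid markers kept 5 of the 7 calls (Rab27a, Rab8a, Rab37, Tbc1d10b and Tbc1d2). In Cdc42-/- against Cdc42+/-, the calls were lost without any 1 of the WT or Cdc42+/- libraries. Over all genes the calls likewise fell without a WT library and were all lost without a Cdc42+/- library. The loss is thus not particular to the Rab and Tbc1d genes. Without Cdc42-/- replicate 1 the count was 26 (31.7%, against 34.8% of all genes), and without replicate 2 it was 7 (8.54%, against 14.9%). The direction of the 7 genes was the same in all 13 alternatives.

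**Figure D4:**
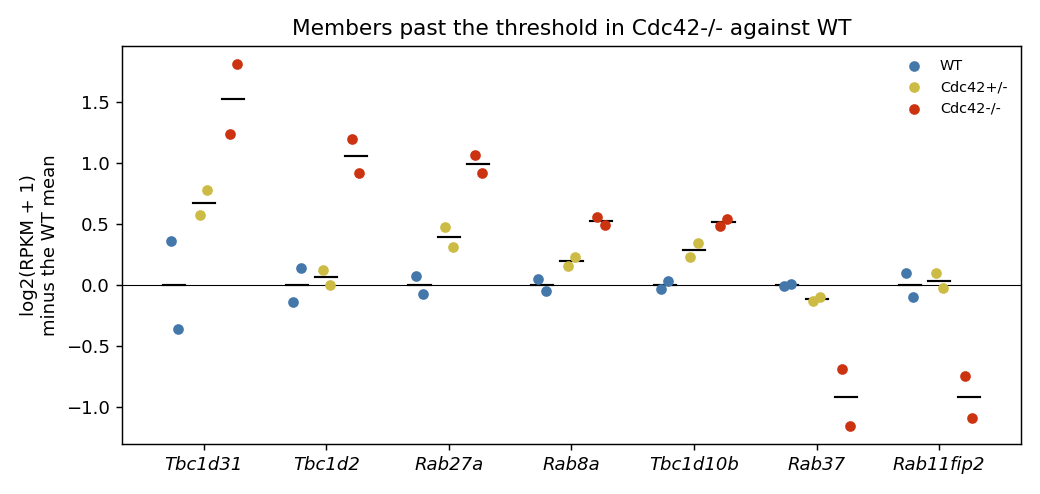
Level of the 7 genes that passed in Cdc42-/- against WT, 1 point per library, by genotype. Rab27a, Rab8a, Tbc1d10b, Tbc1d2 and Tbc1d31 are highest, and Rab37 and Rab11fip2 lowest, in both Cdc42-/- libraries.

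A further 12 genes were high in 1 library only, Cdc42-/- replicate 2. They were chosen after their values were seen, as genes with at least 0.5 RPKM there and at least 2-fold the highest of the other 5 libraries. That is 13.0% of the 92 Rab and Tbc1d genes with at least 0.5 RPKM in some library, against 6.59% (880 of 13364) of all such genes. Rab32 and Rab38, Rabs of lysosome-related organelles, were at 11.5 and 4.86 RPKM in that library, against at most 3.20 and 0.455 RPKM in the other 5. Rab44, a large Rab of granule-bearing cells, was at 9.65 RPKM against at most 0.595 RPKM. Rab31, which acts between Golgi and endosomes, was at 8.03 RPKM against at most 1.99 RPKM. Tbc1d8 was at 6.12 RPKM against at most 0.509 RPKM, and Tbc1d9 at 2.66 RPKM against at most 0.459 RPKM. The other 6 (Rab33a, Rab11fip5, Rab3il1, Rab36, Rab39 and Rab7b) lay between 0.682 and 2.07 RPKM there. In the other Cdc42-/- library Rab32 was at 0.880 RPKM, below all 4 WT and Cdc42+/- libraries, and Rab38 at 0.0573 RPKM. This is the library with the high myeloid and erythroid markers, and the part of those cells in these values was not tested.

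**Figure D5:**
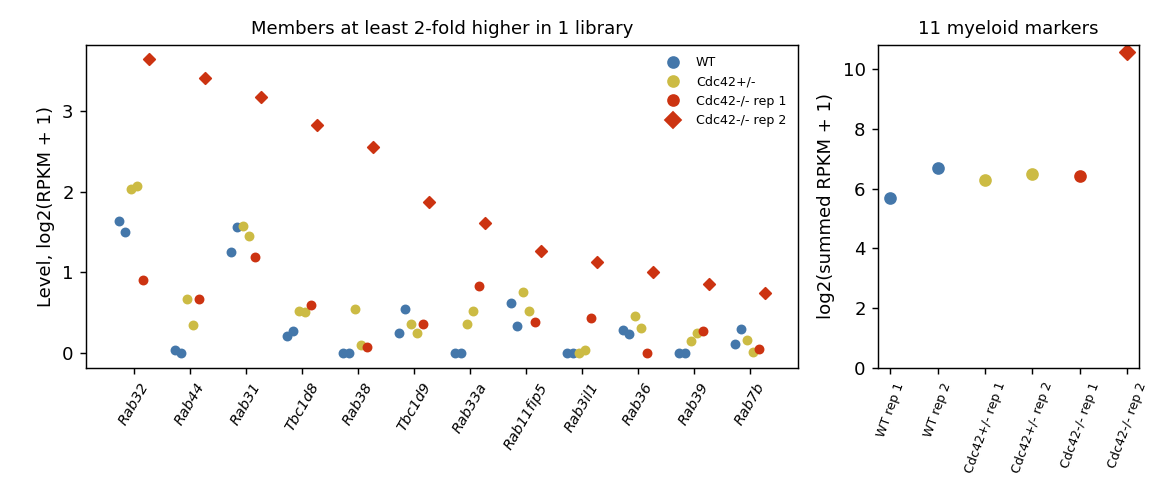
Level of the 12 genes in each library, with Cdc42-/- replicate 2 marked. Each gene is at least 2-fold higher there than in any of the other 5 libraries, from 0.682 RPKM for Rab7b to 11.5 RPKM for Rab32.

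Some of these genes were at or under 3 reads in both WT libraries, so that a fold against WT is a lower bound set by 3 reads per library. Rab44 was at least 78.1-fold higher in Cdc42-/- and at least 6.56-fold higher in Cdc42+/- than in WT. Rab38 was at least 14.4-fold higher, Rab33a at least 6.15-fold higher and Rab3il1 at least 6.59-fold higher in Cdc42-/-. These means include replicate 2. In Cdc42-/- replicate 1, Rab44 was at 0.595 RPKM, close to the 0.587 RPKM of Cdc42+/- replicate 1. Rab38 was at 0.0573 RPKM there, below the 0.171 RPKM that 3 reads per WT library stand for, so no fold holds for that library. Rab33a was at 0.776 RPKM against a floor of 0.231 RPKM, and Rab3il1 at 0.351 RPKM against a floor of 0.116 RPKM. Such floors cover counting error only. The authors' deposited table called Rab44, Rab38, Rab33a, Rab39, Rab3il1 and Tbc1d8 higher in Cdc42-/-, and all 6 are among the 12 genes.

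Other genes of the Rab cycle were taken from lists of GEFs, effectors, other TBC-domain GAPs, membrane cycle and prenylation genes, and the Tbc1d4 pathway. In Cdc42+/- against WT, 0 genes of the 5 lists passed. The shares of all genes that passed were 11.4% in Cdc42-/- against WT and 8.22% in Cdc42-/- against Cdc42+/-, and the counts of these short lists are given as a description. Of 33 GEFs tested, 0 passed in any comparison, with a median difference of -0.002 between Cdc42-/- and WT. Of 9 other TBC-domain GAPs, 1 fell in Cdc42-/- against WT: Rabgap1l, which was at 42.3 and 42.0 RPKM in the WT pair, 39.7 and 36.1 in the Cdc42+/- pair, and 18.6 and 15.5 in the Cdc42-/- pair. Both Cdc42-/- libraries were far below the other 4. Rabgap1l fell by 1.26 against WT (SE 0.13, adjusted p = 0.00355) and by 1.11 against Cdc42+/- (adjusted p = 0.01002), and against WT the call held in all 13 alternatives. Against Cdc42+/- it was lost without either Cdc42+/- library (adjusted p = 0.119 and 0.129). Of 7 membrane cycle and prenylation genes, 1 fell against WT: Rabac1, which binds prenylated Rabs, at 126 and 126 RPKM in the WT pair and 94.7 and 94.7 in the Cdc42-/- pair (log2 difference -0.40, SE 0.09, adjusted p = 0.0415). Its call was lost in 6 of 13 alternatives: without each WT or Cdc42+/- library (adjusted p = 0.146 to 0.222), with only the 2 genotypes compared (0.145) and with the replicate block (0.0659).

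Of 27 Rab effectors tested, 2 rose and 1 fell in Cdc42-/- against WT, a share close to the 11.4% of all genes. Sytl proteins bind Rab27 and tether granules to the plasma membrane, and 2 of those that passed are among them. Sytl3 was at 0.365 and 0.588 RPKM in the WT pair, 0.985 and 0.784 in the Cdc42+/- pair, and 4.06 and 4.75 in the Cdc42-/- pair, and rose by 1.87 (SE 0.24, adjusted p = 0.00677). The genotypes did not overlap. Sytl1 was at 22.5 and 22.3 RPKM in the WT pair, 22.04 and 20.5 in the Cdc42+/- pair, and 11.5 and 12.1 in the Cdc42-/- pair, and fell by 0.88 (SE 0.11, adjusted p = 0.00753). These proteins of 1 family moved in opposite directions. Both calls were lost without either WT library, with an adjusted p of 0.0628 and 0.0509 for Sytl3 and of 0.0765 and 0.0779 for Sytl1. Sytl2 passed against Cdc42+/- only, where it fell by 0.78 (SE 0.16, adjusted p = 0.0386), with 13.6 and 14.6 RPKM in the Cdc42+/- pair, 8.80 and 6.93 in the Cdc42-/- pair and 11.2 and 10.3 in the WT pair. Kif20a, a kinesin named for binding Rab6 and known for its part in cell division, was at 2.59 and 2.76 RPKM in the WT pair, 5.47 and 5.08 in the Cdc42+/- pair, and 14.1 and 22.6 in the Cdc42-/- pair. The genotypes did not overlap, and Kif20a rose by 2.36 (SE 0.24, adjusted p = 0.00346), a call that held in all 13 alternatives. The Sytl2 call was lost without any 1 of the WT or Cdc42+/- libraries (adjusted p = 0.0954 to 0.295), with no filter (0.0532), with only the 2 genotypes compared (0.0983) and with the replicate block (0.0581).

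Of 7 genes of the Tbc1d4 pathway tested, 2 rose in Cdc42-/- against WT and 0 fell, where 6.86% of all genes were higher and 4.57% lower. Akt1, a kinase that phosphorylates Tbc1d4, was at 40.8 and 42.5 RPKM in the WT pair, 44.7 and 44.8 in the Cdc42+/- pair, and 63.7 and 69.4 in the Cdc42-/- pair, and rose by 0.66 (SE 0.10, adjusted p = 0.0122). Slc2a1, which encodes the glucose transporter GLUT1, was at 21.2 and 21.9 RPKM in the WT pair, 18.4 and 18.6 in the Cdc42+/- pair, and 32.8 and 29.5 in the Cdc42-/- pair, and rose by 0.51 (SE 0.11, adjusted p = 0.0387). For both genes the Cdc42-/- libraries were above the other 4. Without any 1 of the WT or Cdc42+/- libraries neither call held, with an adjusted p of 0.0586 to 0.108 for Akt1 and of 0.127 to 0.194 for Slc2a1. Both were also lost with only the 2 genotypes compared (0.0586 and 0.127), and Slc2a1 with upper-quartile scaling (0.0654) and the replicate block (0.0659). Slc2a3, which encodes GLUT3, fell by 0.84 in Cdc42-/- against Cdc42+/- (adjusted p = 0.0386), and this call too was lost without any 1 of those 4 libraries (adjusted p = 0.0846 to 0.270). Slc2a4, which encodes GLUT4, the transporter that Tbc1d4 is known to hold back, was at 0.200 and 0.207 RPKM in the WT pair and 0.417 and 0.543 in the Cdc42-/- pair, too low for the test.

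The 3 opposite-strand transcripts had 0 calls with all 6 libraries. Of all genes, 0% passed in Cdc42+/- against WT, 11.4% in Cdc42-/- against WT and 8.22% in Cdc42-/- against Cdc42+/-, and 3 genes are too few to set against these shares. Rab10os was at 10.8 and 15.5 RPKM in the WT pair and 9.94 and 7.35 in the Cdc42-/- pair, and Rab26os ranged from 0.396 RPKM in WT replicate 2 to 6.44 RPKM in Cdc42-/- replicate 1. Tbc1d22bos was at most 1.12 RPKM in any library. Since the strand setting is not given, reads of Rab10os and Rab10, and of Tbc1d22bos and Tbc1d22b, cannot be told apart where these genes overlap.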

How the data were processed

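RNA was sequenced from CD4+YFP+ splenic Treg cells in 6 libraries, 2 a genotype, with genotype and replicate number taken from the sample titles. TopHat and mm10 are named per the submitters' processing notes; the counting tool, annotation, strand setting and filters are not given in the sources used here. The authors deposited 2 tables of 14608 genes with the same WT libraries. Their library columns hold RPKM made by the authors, a unit worked out from the values. The deposited group means are a signal, reads divided by size factors. The deposited tables also hold the authors' own test: a fold change, a log2 fold change and raw and adjusted p-values. Whole reads were recovered from the authors' RPKM and group means: 100% of the values were whole within 0.01 reads. The libraries held 15911812 and 8556576 (WT), 15341342 and 17796100 (Cdc42+/-), and 11053856 and 9123348 (Cdc42-/-) reads.

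The test was limma 3.58.1 in R 4.3.3 (lmFit, eBayes with a trend) on log2(RPKM + 1), with all 6 libraries in 1 fit. Genes averaging under 0.5 RPKM were left out. The steps were also run on simulated data in which all libraries had the same spread, whereas the spread here differed between genotypes. That run therefore does not show how well the shared estimate of spread suits these libraries. SE is the moderated standard error. Fold changes on this scale understate the change of low genes. Alternatives were a pseudocount of 0.1, no filter, a filter at 2 RPKM, upper-quartile scaling, only the 2 genotypes compared, voom on the recovered reads, the replicate block and each library left out. The replicate numbers share only a number, with correlations of deviations of 0.02, 0.20 and -0.03, and pair no samples. Replicates differed by more than sampling noise, with a chi-square per gene of 6.15 or more. Genes matched RefSeq (GRCm38.p6) by ID, 94 of 94, and 75 had a promoter entry. Overlaps of exons come from the GENCODE annotation given.

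The genes, lists and named-gene rule were chosen with earlier results of these data known. The rule names Rab6b, Tbc1d4, Rab6a, Tbc1d1, up to 30 other genes past the threshold, the 8 Rab and 5 Tbc1d genes highest in WT, and at most 4 genes past the threshold per pathway list. Others, such as Rab3a, Rab11fip4, Rab11a, Rab10os and those high in 1 library, were named after their values were seen.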

Additional observations from a re-analysis of the deposited data

How the results depend on the processing

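In all 13 alternatives, 0 of the 82 genes passed in Cdc42+/- against WT. In Cdc42-/- against WT the count of 7 became 1 with only the 2 genotypes compared and 4 with the replicate block (4.88%, against 9.35% of all genes), and ranged from 0 to 26 with 1 library left out. In Cdc42-/- against Cdc42+/- the count of 3 became 0 with only the 2 genotypes compared and 6 with voom (7.32%, against 9.67% of all genes), and ranged from 0 to 26 with 1 library left out. With the replicate block it was 3, of which 2 are shared (Rab27a and Rab37), with Rab1a in place of Rab11fip2.

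Over all genes, Cdc42+/- against WT went from 0 to 60 with only these genotypes, to 1 with voom, and ranged from 0 to 76 with 1 library left out. Cdc42-/- against WT went from 1398 to 536 with only these genotypes, and ranged from 259 to 4433 with 1 library left out. Cdc42-/- against Cdc42+/- went from 1006 to 276, and ranged from 0 to 4263. Fits with fewer libraries have fewer residual degrees of freedom, and a lone library is assumed to vary like the other genotypes.

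The difference of Tbc1d1 changed sign: in Cdc42+/- against WT it was -0.014 with upper-quartile scaling and -0.016 with voom, and ranged from -0.068 to 0.106 with 1 library left out. Likewise the difference of Cdc42-/- ranged from -0.109 to 0.472 against WT and from -0.128 to 0.453 against Cdc42+/-. The cause was not tested. Levels of Rab6b in Cdc42-/- rest on 10 and 13 reads.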
